A study of Mus musculus with 24 samples.

Results

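The Cyp2c genes encode a subfamily of cytochrome P450 enzymes of the liver. The 10 members followed here were Cyp2c29, Cyp2c37, Cyp2c38, Cyp2c39, Cyp2c40, Cyp2c44, Cyp2c50, Cyp2c54, Cyp2c68 and Cyp2c69. They were taken by gene symbol from a count table of 55421 genes, in which 9 stood under these symbols and Cyp2c44 stood under Cyp2c23 (ENSMUSG00000025197), for which the RefSeq gene table gives Cyp2c44 as a synonym. All 10 had enough counts to be among the 13583 genes tested.

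PolyA RNA was sequenced from hepatocytes of 24 male mice that had been isolated by collagenase perfusion and purified, 6 mice in each of 4 groups. Young mice were C57BL/6N aged 6 months and old mice were C57BL/6J aged 24 months by their labels. The effects of age and of substrain therefore cannot be separated. Mice of each age ate a normal diet (young ND or YND, old ND or OND) or the high-fat diet 58Y1 with 60% of its energy from fat (young HFD or YHFD, old HFD or OHFD) for 9 weeks. The labels name the normal diet as a Teklad chow, whereas the methods of the study name a 58Y2 diet, and the ages given in the study differ from those in the labels. The labels name 2 batches with 3 mice of each group in each, except that OND had 2 mice in batch 1 and 4 in batch 2. Counts on genes totalled 15134973 to 22185069 per mouse in YND, 15458168 to 17807883 in YHFD, 13692834 to 17676870 in OND and 9200332 to 13517632 in OHFD. All 10 hepatocyte markers, such as Alb, were detected in every group, and their summed level was 116000 to 170000 CPM (counts scaled to library size) in YND, 89200 to 153000 in YHFD, 81500 to 193000 in OND and up to 160000 in OHFD. The summed level of 20 leukocyte markers, such as Ptprc, was 11.1 to 114 CPM in YND, 45.4 to 305 in YHFD, 115 to 1840 in OND and 129 to 1080 in OHFD, with 1 of the 20 at 0 in all YND mice. Of the 17 leukocyte markers tested, 16 were higher in OND than in YND, 4 were higher in YHFD than in YND and 0 differed between OHFD and OND (the quasi-likelihood F test of edgeR, Benjamini-Hochberg adjusted, as for all adjusted p-values here unless another tool is named), and 15 were higher in OHFD than in YND. Of 8 sinusoidal endothelial and 8 stellate cell markers, 4 and 7 were higher in OND than in YND and 1 and 1 in YHFD than in YND, with 0 called between OHFD and OND. In young mice these marker counts on HFD ranged from 0 to 14 (leukocyte), 0 to 8 (endothelial) and 0 to 7 (stellate) under other settings, with median log2 differences of 2.21, 1.40 and 1.62 over the tested markers, so a small count does not show that they did not differ. In such preparations fewer cells of a type and less RNA per cell cannot be told apart.

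Cyp2c enzymes sit in the endoplasmic reticulum, take electrons from the reductase Por and add oxygen to drugs, steroids, retinoids and fatty acids. From arachidonic acid they make epoxides, the epoxyeicosatrienoic acids that soluble epoxide hydrolase (Ephx2) breaks down, and hydroxylated products. In liver their genes depend on the nuclear receptors HNF4A, CAR (Nr1i3) and PXR (Nr1i2), and several differ between the sexes under the pattern of growth hormone secretion.

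In the GENCODE annotation of GRCm38, the build that mm10 denotes, 9 members lay within 844.5 kb of chromosome 19 (chr19:39269405-40113950), while Cyp2c44 lay 3891.1 kb farther along (chr19:44005022-44029208, minus strand). Cyp2c29, Cyp2c37, Cyp2c39 and Cyp2c50 were on the plus strand and the other 6 on the minus strand. Over all aligned columns, gaps included, identity of coding sequences was 96.5% between Cyp2c68 and Cyp2c69 and 96.1% between Cyp2c37 and Cyp2c50. Cyp2c40 matched Cyp2c68 at 92.6%, and Cyp2c29 matched its nearest copy, Cyp2c39, at 89.5%. The coding sequence of Cyp2c40 was longer, at 1563 bases against 1476 for Cyp2c68, and its extra bases counted as not identical. That pair shared 1448 identical bases, against 1425 for Cyp2c68 and Cyp2c69, so 92.6% understates its likeness. Cyp2c44 stood apart, with at most 65.9% identity to any other Cyp2c gene. Of all 75-base stretches of the Cyp2c40 transcript, 57.1% also occurred in the transcript of another gene of the Cyp2 families, against 43.2% for Cyp2c69, 28.5% for Cyp2c68, 17.8% for Cyp2c50, 14.1% for Cyp2c54 and 13.8% for Cyp2c37. The shares were 3.0% for Cyp2c39, 1.9% for Cyp2c38, 0.5% for Cyp2c29 and 0.0% for Cyp2c44. How reads that fit several copies were counted is not stated, so the levels of Cyp2c40, Cyp2c69 and Cyp2c68 in particular could be split or mixed between copies, whereas those of Cyp2c29 and Cyp2c44 could hardly be.

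Promoters of 4 members are shown because Cyp2c29 was the member with the largest fall on HFD, and Cyp2c40 and Cyp2c69 were high in the same mice and, with Cyp2c68, shared the most 75-base stretches with other copies. Each runs from 250 bases before to 50 bases after the start site in RefSeq's annotation of GRCm38.p6, 5′ to 3′ on the strand of the gene, with capitals marking matches on either strand to AGGTCA (the core element bound by many nuclear receptors), CAAAGTCCA (a core of the HNF4A consensus) or TATAAA (the letters of the TATA box). The STAT5 consensus TTCNNNGAA, the C/EBP palindrome TTGCGCAA and the HNF1 palindrome were also searched and had no match in any Cyp2c window. The windows are chr19:39286835-39287134 (plus) for Cyp2c29, which does not hold the outermost GENCODE start of the gene, at 39269405, chr19:39812765-39813064 (minus) for Cyp2c40, chr19:39886720-39887019 (minus) for Cyp2c69 and chr19:39741052-39741351 (minus) for Cyp2c68.
Cyp2c29: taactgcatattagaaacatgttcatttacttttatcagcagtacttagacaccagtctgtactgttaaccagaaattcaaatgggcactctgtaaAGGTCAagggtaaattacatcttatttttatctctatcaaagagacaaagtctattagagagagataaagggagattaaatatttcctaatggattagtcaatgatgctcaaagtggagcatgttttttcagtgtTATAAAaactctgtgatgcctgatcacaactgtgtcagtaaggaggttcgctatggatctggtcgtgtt
Cyp2c40: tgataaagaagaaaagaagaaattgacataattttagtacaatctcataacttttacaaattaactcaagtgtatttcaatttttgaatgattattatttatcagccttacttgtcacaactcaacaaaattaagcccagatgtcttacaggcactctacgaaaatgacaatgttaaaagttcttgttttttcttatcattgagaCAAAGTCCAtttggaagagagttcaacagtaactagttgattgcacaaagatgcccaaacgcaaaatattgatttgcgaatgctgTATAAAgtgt
Cyp2c69: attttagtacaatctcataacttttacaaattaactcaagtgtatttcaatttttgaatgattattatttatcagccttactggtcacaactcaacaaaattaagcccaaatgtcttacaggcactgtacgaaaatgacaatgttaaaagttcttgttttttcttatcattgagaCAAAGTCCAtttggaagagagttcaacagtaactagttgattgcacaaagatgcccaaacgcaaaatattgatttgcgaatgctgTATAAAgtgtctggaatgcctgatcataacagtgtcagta
Cyp2c68: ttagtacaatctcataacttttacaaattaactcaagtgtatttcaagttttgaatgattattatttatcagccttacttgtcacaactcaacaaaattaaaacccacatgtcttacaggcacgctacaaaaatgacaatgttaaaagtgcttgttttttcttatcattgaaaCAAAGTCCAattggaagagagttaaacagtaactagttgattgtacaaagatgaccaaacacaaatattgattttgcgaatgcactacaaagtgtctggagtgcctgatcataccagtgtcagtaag

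The window of Cyp2c29 held AGGTCA at -154 and TATAAA at -19, counted from the start site to the first base. TATAAA stood downstream of the start site in Cyp2c40 (41) and Cyp2c69 (11) and was absent from the window of Cyp2c68. The Cyp2c29 window held no CAAAGTCCA, which occurred at -45 in Cyp2c40, at -75 in Cyp2c69 and at -77 in Cyp2c68. Among 32851 mouse promoter windows of this length, 0.47% held CAAAGTCCA, 16.26% held AGGTCA and 13.62% held TATAAA, against 8.3% for TTCNNNGAA, 0.18% for TTGCGCAA and 0.01% for the HNF1 palindrome. The other member windows, those of Cyp2c37, Cyp2c38, Cyp2c39 and Cyp2c50, held no CAAAGTCCA either, and entries for Cyp2c44 and Cyp2c54 were not used. Outside the members, CAAAGTCCA also occurred in the windows of Cyp2c65 (-116), Cyp2c67 (-125) and Cyp2c70 (-64), and not in those of Cyp2c55 and Cyp2c66. Promoters of Cyp2c68 and Cyp2c69 were identical at 91.1% of aligned columns, those of Cyp2c37 and Cyp2c50 at 86.6% and those of Cyp2c40 and Cyp2c69 at 80.9%. Columns with a gap counted as not identical. The windows of Cyp2c40 and Cyp2c69 begin at different points of a shared sequence, as their TATAAA positions show. Their 80.9% (267 identical bases in 330 columns) therefore understates their likeness, and these values do not rank the pairs. A match describes letters only, and binding was not measured.

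In young ND hepatocytes, levels per kilobase of exon differed widely across the family. The length used was the union of all annotated exons of a gene. For Cyp2c29 and Cyp2c50 it was 3061 and 2918 bases, against 1783 and 1812 for their coding transcripts, while for Cyp2c37 both were 1824. Per kb of transcript, Cyp2c29 and Cyp2c50 would stand higher relative to Cyp2c37. Cyp2c29, which epoxidizes arachidonic acid, was the most abundant member, at 530 to 708 CPM per kb of exon (median 593) in the 6 mice. Cyp2c50, another epoxygenase, followed at 257 to 391 (median 293), without overlap with Cyp2c29. Cyp2c37, which hydroxylates arachidonic acid, had a median of 196 CPM per kb, Cyp2c44, an epoxygenase also found in kidney and endothelium, 174, and Cyp2c54, 159. Neighbours in the order from Cyp2c50 to Cyp2c68 (median 93.2) overlapped in their ranges over mice, which does not say whether the order held within each mouse. Cyp2c38 was lower, with a median of 15.7 and at most 26.4 CPM per kb. Cyp2c39, which can hydroxylate retinoic acid, had a median of 1.16 CPM per kb, and Cyp2c40 (0.739) and Cyp2c69 (0.571), both known for higher expression in female than in male liver, overlapped with it. The deposited FPKM values gave another order in YND, with Cyp2c50 at a median of 37.0 above Cyp2c29 at 30.7. For 84.2% to 94.2% of genes with over 200 counts in a mouse, FPKM stood within 1.25-fold of a constant multiple of CPM per kb of the whole gene, introns included, against 18.7% to 20.4% for CPM per kb of exon, so the order of levels given here is that of CPM per kb of exon.

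**Figure D1:**
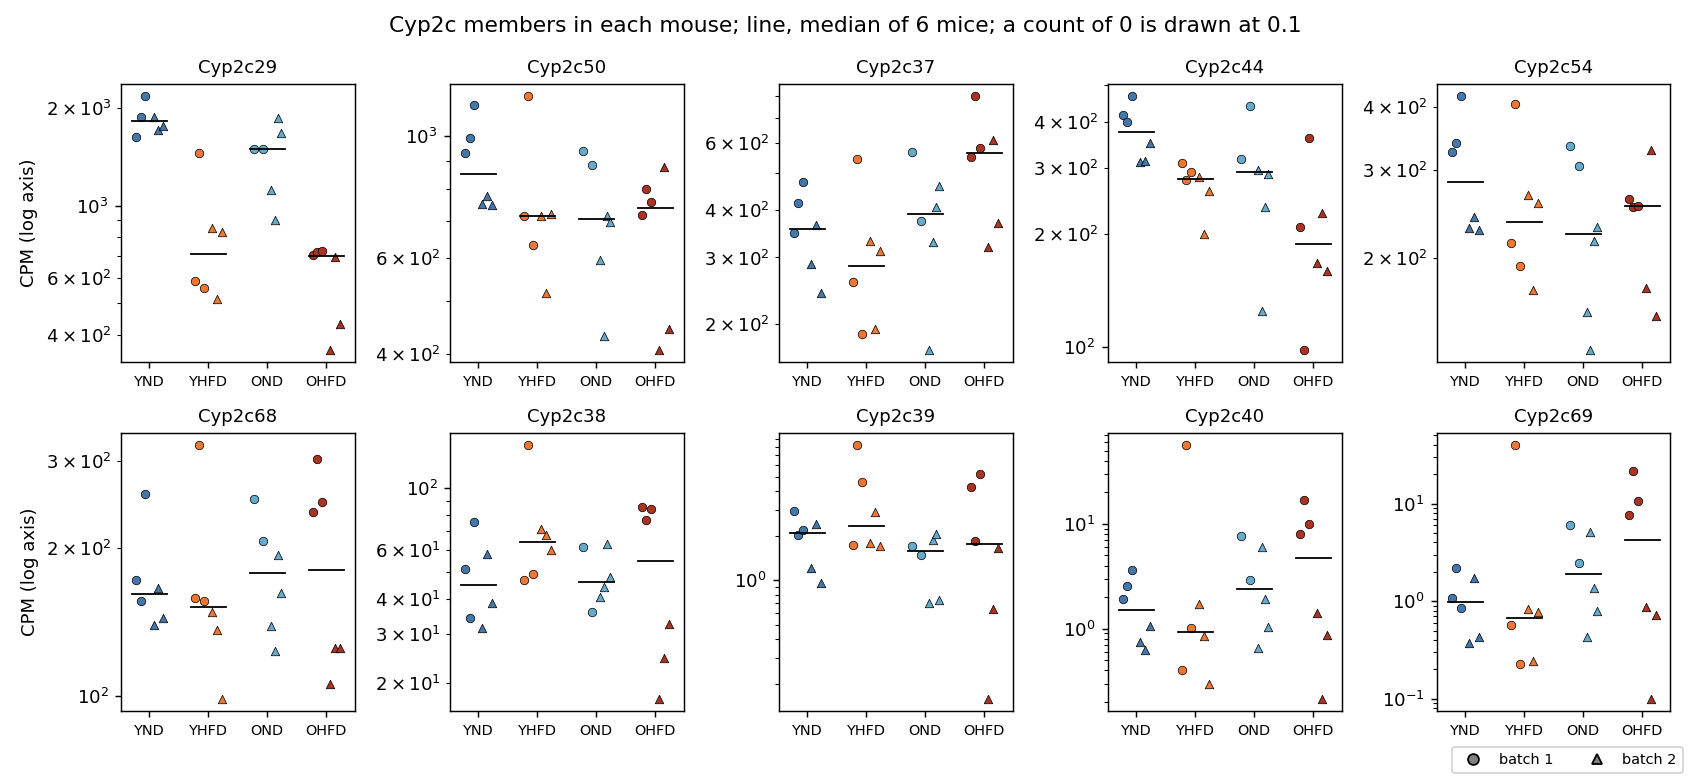
Each point is the level of a Cyp2c member in 1 mouse, in CPM on a log axis whose range differs between panels, by group, with circles for batch 1, triangles for batch 2 and a line at the median of 6 mice. Cyp2c29 was lower in the HFD groups at both ages without overlap, and YHFD replicate 2 was the highest mouse of its group in 9 of the 10 panels.

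To ask what HFD did to the family at each age, HFD mice were compared with ND mice of the same age. Cyp2c29 fell at both ages. It was at 1621 to 2168 CPM in YND (median 1814) and 514 to 1454 CPM in YHFD (median 709). In old mice it was at 903 to 1859 CPM in OND (median 1494) and 360 to 726 CPM in OHFD (median 700). In Cyp2c29 every HFD mouse lay below every ND mouse of its age, and the nearest to its ND group was YHFD replicate 2, whose 1454 CPM was 1.71 times the next highest of YHFD. The log2 fold change was -1.20 (SE 0.22, adjusted p = 0.00415), or 2.30-fold lower, in young mice and -1.29 (SE 0.23, adjusted p = 0.00392), or 2.45-fold lower, in old mice. Cyp2c29 passed the test in all 24 fits that left out 1 mouse, in both comparisons. Within batch 1 the young and old changes were -1.12 and -1.11, and within batch 2 they were -1.25 and -1.47, none of which passed with 2 to 4 mice per group (adjusted p from 0.122 to 0.321). The age by diet interaction of Cyp2c29 was -0.09 (95% interval -0.73 to 0.56, adjusted p = 0.951).

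Cyp2c29 was the 1 member of 10 called at each age, against 3.50% of all tested genes called between YHFD and YND (1.59% lower) and 3.01% between OHFD and OND (1.64% lower and 1.37% higher). Cyp2c44 did not pass in either. It was at 312 to 467 CPM in YND and 201 to 310 CPM in YHFD, without overlap, and the change of -0.46 (SE 0.22) had an adjusted p of 0.226. Cyp2c29 and Cyp2c44 were the 2 members whose YHFD mice all lay below all YND mice, a pattern that 3.06% of tested genes showed, and 0 members were higher without overlap, against 1.77%. In old mice Cyp2c44 was at 125 to 441 CPM in OND and 98.4 to 361 CPM in OHFD, with a change of -0.52 (SE 0.22, adjusted p = 0.172), and the groups overlapped. When only YND and YHFD mice were fitted, Cyp2c44 was called (-0.44, adjusted p = 0.00564). In old mice Cyp2c29 alone was lower without overlap, against 0.788% of tested genes.

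Cyp2c50 and Cyp2c54, close copies that also epoxidize fatty acids, did not pass on HFD at either age. Cyp2c50 was at 750 to 1142 CPM in YND and 518 to 1183 CPM in YHFD (log2 fold change -0.25, 95% interval -0.61 to 0.11, adjusted p = 0.452), and at 431 to 941 CPM in OND and 407 to 879 CPM in OHFD (-0.15, 95% interval -0.52 to 0.21, adjusted p = 0.663). Both pairs of groups overlapped, and the intervals exclude a fall as large as that of Cyp2c29. Cyp2c54 differed by -0.20 in young and 0.02 in old mice (adjusted p = 0.623 and 0.971) and Cyp2c68 by -0.06 and -0.10 (adjusted p = 0.897 and 0.806). Cyp2c38, which also makes arachidonic acid epoxides, was at 31.6 to 75.7 CPM in YND and 46.9 to 142 CPM in YHFD, a difference of 0.60 that did not pass (95% interval -0.02 to 1.22, adjusted p = 0.254). Cyp2c39 was at 0.963 to 2.93 CPM in YND and 1.72 to 8.19 CPM in YHFD (0.75, 95% interval -0.19 to 1.69, adjusted p = 0.369). In both genes YHFD replicate 2 was the highest mouse of the young groups. The median log2 fold change of the 10 members was -0.13 in young and -0.11 in old mice, against 0.01 and -0.01 for all tested genes.

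**Figure D2:**
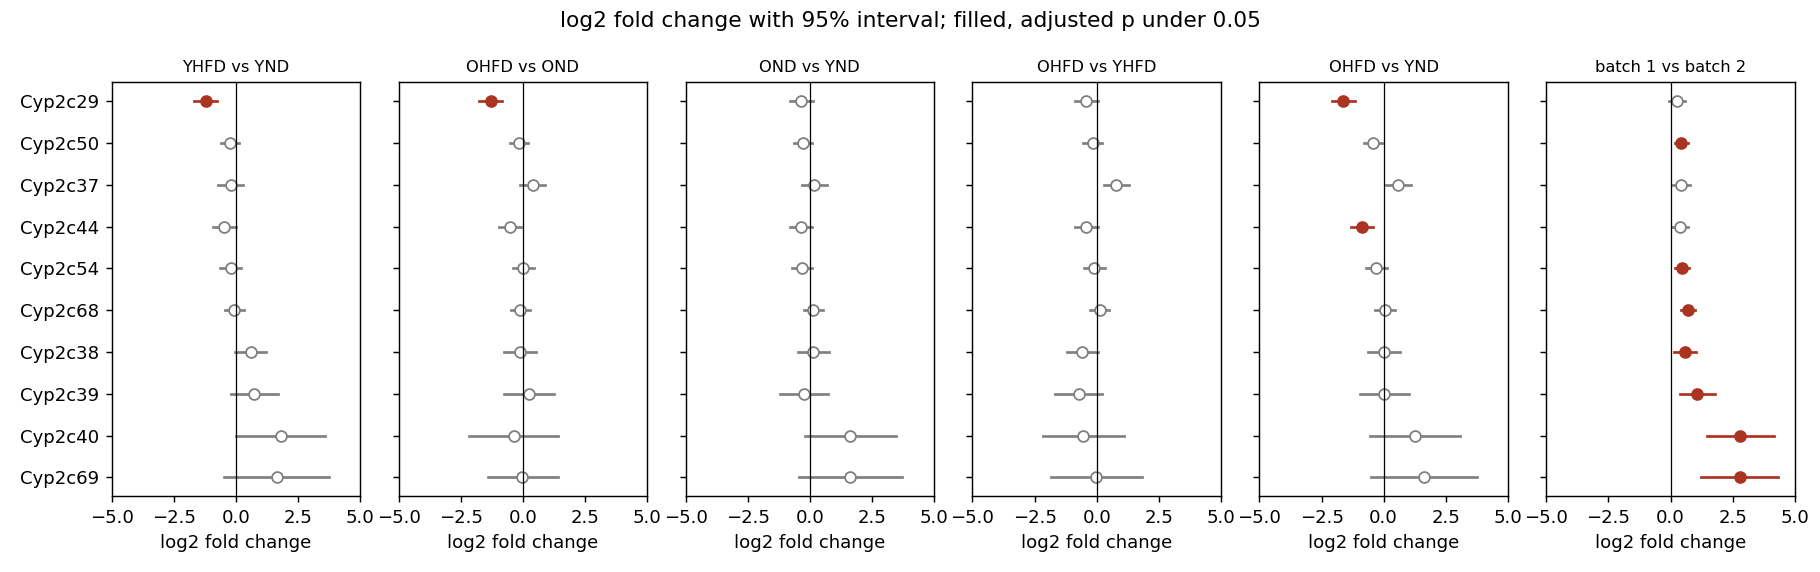
Points are log2 fold changes of the 10 members in 5 group comparisons and between batches, ordered by level in YND, with bars for the 95% interval and filled red points where the adjusted p was under 0.05. Cyp2c29 is the filled point in both diet comparisons, Cyp2c44 joins it in OHFD against YND, and all 10 points lie to the right of 0 for batch 1 against batch 2.

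The 5 other Cyp2c genes of the cluster gave a reference for these changes. Cyp2c55, which hydroxylates arachidonic acid, fell further than any member. It was at 9.48 to 13.7 CPM in YND and 0.949 to 4.69 CPM in YHFD, and at 3.27 to 18.1 CPM in OND and 0.432 to 4.11 CPM in OHFD. The young groups did not overlap, while OND replicate 4, at 3.27 CPM, lay within the OHFD range. The log2 fold change of Cyp2c55 was -2.61 (SE 0.39, adjusted p = 0.000609) in young and -2.90 (SE 0.41, adjusted p = 0.000475) in old mice. Cyp2c67, a near copy of Cyp2c69 and Cyp2c68, and Cyp2c70, which forms muricholic acids in mice, did not pass (Cyp2c67 -0.50 and -0.15, adjusted p = 0.163 and 0.726, Cyp2c70 -0.63 and -0.12, adjusted p = 0.0794 and 0.775, in young and old mice). Cyp2c65 and Cyp2c66 had 18 and 1 counts over all 24 mice and were not tested.

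The makeup of the family's transcripts differed between diets. Cyp2c29 took 41.9% to 51.6% of the counts of the 10 members in YND and 37.5% to 50.3% in OND. On HFD it took 25.6% to 32.8% in YHFD and 23.2% to 25.3% in OHFD. All 12 HFD mice thus lay below all 12 ND mice, YHFD replicate 2 included, which is given as a description with no test. Cyp2c50 took 20.8% to 24.0% in YND, 19.3% to 23.7% in OND, 26.7% to 31.2% in YHFD and a median of 25.9% (at most 30.4%) in OHFD, again with no overlap between diets. Cyp2c37 took 19.2% to 25.8% in OHFD and at most 15.7% in any mouse of the other groups. These shares sum to 100% in each mouse, so a fall of Cyp2c29 by itself raises the others. The summed level of the 10 members was 3511 to 5011 CPM in YND, 1808 to 4435 in YHFD, 2099 to 3982 in OND and 1555 to 3086 in OHFD.

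**Figure D3:**
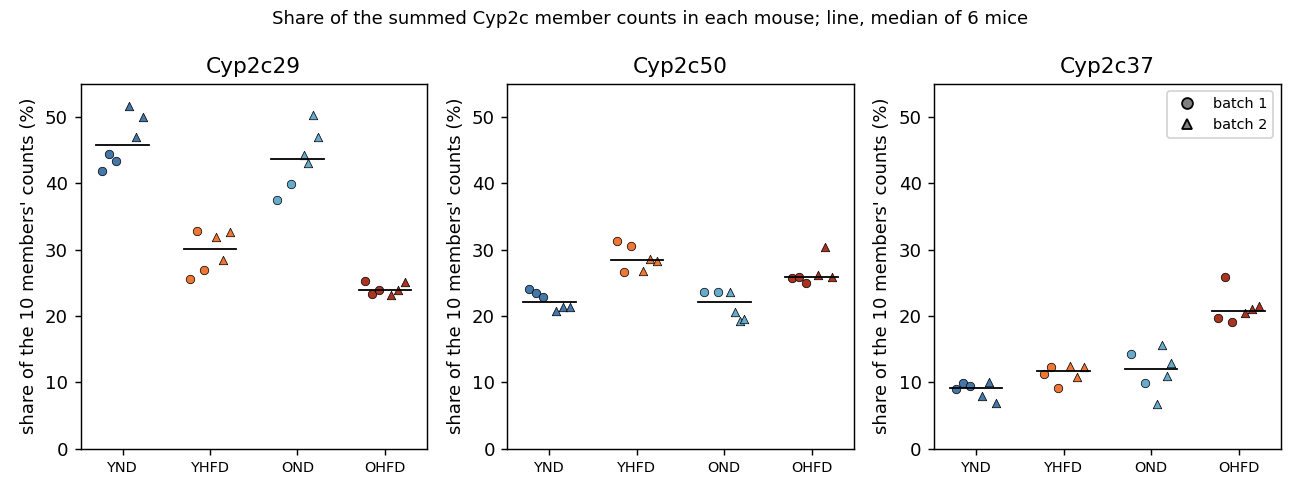
Each point is the percentage of the summed counts of the 10 members that Cyp2c29, Cyp2c50 or Cyp2c37 took in 1 mouse, by group, with circles for batch 1, triangles for batch 2 and a line at the median. The Cyp2c29 share was at least 37.5% in every ND mouse and at most 32.8% in every HFD mouse.

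To ask about age, old mice were compared with young mice on the same diet. No member was called between OND and YND, where 8.50% of tested genes were (7.26% higher and 1.24% lower), and none was higher without overlap, against 2.08% (edgeR's quasi-likelihood test, with 0 members at an unadjusted p under 0.05 and 0 called with DESeq2). Cyp2c29 was at a median of 1494 CPM in OND and 1814 CPM in YND (log2 fold change -0.33, 95% interval -0.78 to 0.13, adjusted p = 0.419). Cyp2c40 and Cyp2c69 had the largest differences, 1.63 and 1.64, with standard errors of 0.89 and 1.01 (adjusted p = 0.291 and 0.363). Between OHFD and YHFD 0 members were called as well, against 2.24% of tested genes (0.420% lower), and 0 were higher without overlap, against 0.552%. Of the members 1, Cyp2c37, had an unadjusted p under 0.05. Cyp2c37 was at 319 to 796 CPM in OHFD (median 566) and 189 to 545 CPM in YHFD (median 285). The groups overlapped, with YHFD replicate 2 at 545 CPM and the other 5 YHFD mice at 332 CPM or less, and the log2 fold change was 0.79 (SE 0.24, adjusted p = 0.0805). DESeq2 with the batch term called it (0.81, adjusted p = 0.0215), and without OHFD replicate 2, its highest mouse, edgeR gave 0.70 (adjusted p = 0.187). No member, and no gene of the 13583, was called for the age by diet interaction with edgeR's quasi-likelihood test, with 1247 genes and 0 members at an unadjusted p under 0.05. With no filter on low counts, the same test did call members for the interaction and in both age comparisons. Their numbers are given with the other settings below.

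Old HFD was also compared with young ND, the pair in which age, substrain and diet all differ. Between OHFD and YND 2 members fell, Cyp2c29 and Cyp2c44, against 30.2% of tested genes called (12.9% lower). Cyp2c29 was 3.07-fold lower (log2 fold change -1.62, SE 0.23, adjusted p = 6.61e-05), with no overlap between the groups, a pattern of 4.27% of tested genes. It was called within batch 1 (-1.43) and within batch 2 (-1.84), with an adjusted p of 0.0214 in each. Cyp2c44 was at 98.4 to 361 CPM in OHFD (median 189) and 312 to 467 CPM in YND (median 375). OHFD replicate 3, at 361 CPM, lay within the YND range, and the other 5 OHFD mice lay below it. The lowest, OHFD replicate 2, stood apart on the second principal component of all tested genes, at -143.3 against -18.8 to 29.5 for the other 23 mice, and it was also the highest OHFD mouse for Cyp2c37, Cyp2c40, Cyp2c68 and Cyp2c69. The log2 fold change of Cyp2c44 was -0.87 (SE 0.22, adjusted p = 0.00602), or 1.83-fold lower, and it passed in all 24 fits that left out 1 mouse, with -0.71 (adjusted p = 0.00811) without OHFD replicate 2. Within single batches it was -0.96 and -0.80 (adjusted p = 0.111 and 0.0884). Cyp2c37 was higher and Cyp2c50 lower by 0.59 and -0.41 on the log2 scale, and neither passed (adjusted p = 0.0686 and 0.0765). Cyp2c37 was called there with RLE scaling (0.63, adjusted p = 0.0485), with DESeq2 with the batch term (0.63, adjusted p = 0.0351), with only the 2 groups fitted (0.62, adjusted p = 0.0282) and with no filter on low counts (0.54, adjusted p = 0.0138).

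Cyp2c40 and Cyp2c69 were low in most mice and differed between mice far more than the other members. Cyp2c40 was at 1.94, 2.55 and 3.65 CPM in the YND mice of batch 1 and 0.741, 0.630 and 1.07 CPM in those of batch 2. In YHFD it was at 0.402, 56.0 and 1.02 CPM in batch 1 and 1.74, 0.849 and 0.297 CPM in batch 2. In OHFD it was at 7.95, 16.8 and 10.1 CPM in batch 1 and 1.42, 0.215 and 0.864 CPM in batch 2. The OND mice, at 7.63 and 2.89 CPM in batch 1 and 0.651, 5.96, 1.93 and 1.04 CPM in batch 2, overlapped between batches. YHFD replicate 2 thus stood 32.3 times above the next mouse of its group, and the 3 OHFD mice of batch 1 stood above the 3 of batch 2. In OHFD the batches also stood apart without overlap for Cyp2c68 (236 to 302 CPM in batch 1 against 106 to 125 in batch 2), Cyp2c38 (77.1 to 85.3 against 17.6 to 32.8), Cyp2c39 (1.84 to 5.23 against 0.158 to 1.66) and Cyp2c29 (707 to 726 against 360 to 694). These are 6 of the 10 members higher in batch 1 without overlap in OHFD, against 10.2% of all tested genes, a comparison added after the values were seen. The counts were 4 in YND, 1 in YHFD and 4 in OND, against 14.1%, 13.6% and 13.3% of tested genes. Cyp2c69 was high in the same mice as Cyp2c40. It was at 39.6 CPM in YHFD replicate 2, 47.2 times the next YHFD mouse, at 7.64, 21.7 and 10.6 CPM in the OHFD mice of batch 1, and at 0.869, 0 and 0.720 CPM in those of batch 2. Its batches overlapped in YND (1.09, 2.22 and 0.862 CPM against 0.370, 1.72 and 0.428 CPM) and in OND (6.00 and 2.47 CPM against 0.434, 5.06, 1.36 and 0.796 CPM). The count of 0 in OHFD replicate 5 allows up to 0.326 CPM, which covers counting error only.

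The differences of Cyp2c40 and Cyp2c69 between YHFD and YND, 1.82 (SE 0.87, adjusted p = 0.228) and 1.64 (SE 1.03, adjusted p = 0.382), did not pass, and without YHFD replicate 2 they were -0.41 and -0.70. YHFD replicate 2 was also the highest YHFD mouse for Cyp2c68 (322 CPM), Cyp2c38 (142 CPM) and Cyp2c39 (8.19 CPM), and was highest for 9 of the 10 members, all but Cyp2c44. As 57.1% of Cyp2c40 and 43.2% of Cyp2c69 were shared with other copies, these reads cannot be assigned with certainty to either gene. In the same mouse 20 female-biased liver genes summed to 3070 CPM, the highest of 24 mice, of which Cyp4a14 gave 1690 CPM and Cyp4a10 961 CPM, fatty acid hydroxylases that are also targets of PPARA, the 22 male-biased genes to 6380 CPM (4700 to 10700 CPM in YHFD, median 6170), and the leukocyte markers to 45.4 CPM, the lowest of YHFD. Ddx3y, a gene of the Y chromosome, was at 73.4 CPM there and Xist, expressed from the inactive X chromosome of females, at 0. In OHFD the female-biased genes summed to 2170, 2250 and 2500 CPM in batch 1 and 869, 866 and 1070 CPM in batch 2. The part of these differences in the levels of Cyp2c40 and Cyp2c69 was not tested.

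**Figure D4:**
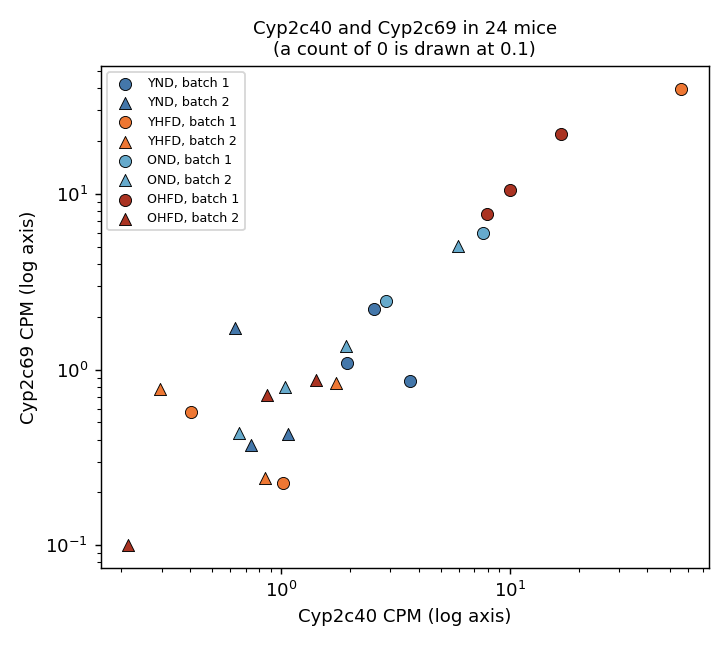
Each point is 1 of 24 mice, with the level of Cyp2c40 on the horizontal and of Cyp2c69 on the vertical axis, both in CPM on log axes, coloured by group with circles for batch 1 and triangles for batch 2. YHFD replicate 2 lies at the upper right (56.0 and 39.6 CPM), followed by the 3 OHFD mice of batch 1.

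The batch term of the same fit, examined after these values were seen, separated the batches for most but not all members. Of the 10 members 7 were called higher in batch 1 than in batch 2 and 0 lower, against 32.2% of tested genes called, 14.2% higher and 18.0% lower. The log2 difference was 0.71 for Cyp2c68 (SE 0.13, adjusted p = 0.000493), 2.81 for Cyp2c40 (SE 0.65, adjusted p = 0.00248) and 2.78 for Cyp2c69 (SE 0.76, adjusted p = 0.0076). Cyp2c39 (1.08), Cyp2c38 (0.58), Cyp2c54 (0.47) and Cyp2c50 (0.44) were also called. Cyp2c37 (0.43) and Cyp2c44 (0.39) did not pass, and Cyp2c29 had the smallest difference, 0.25 (95% interval -0.08 to 0.57, adjusted p = 0.24). The median over the members was 0.52, against -0.01 for all tested genes. Without YHFD replicate 2 the differences were 1.72 for Cyp2c40 (adjusted p = 0.012), 1.57 for Cyp2c69 (adjusted p = 0.0555) and 0.45 for Cyp2c38 (adjusted p = 0.134), so that the last 2 were no longer called. The call of Cyp2c38 held in only 9 of the 24 fits that left out 1 mouse. The leukocyte markers moved with batch in part: their sum was 33.9, 11.1 and 17.2 CPM in the YND mice of batch 1 and 114, 67.2 and 107 CPM in those of batch 2, and the 4 highest sums, 1840 CPM in OND replicate 4, 1210 in OND replicate 3, 1080 in OHFD replicate 6 and 869 in OHFD replicate 4, were all in batch 2. OND replicate 4 and OHFD replicate 4 were the lowest mice of their groups for 5 and 6 of the members. The part of these markers in the batch difference was not tested, and the labels do not say what the batches differ in.

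Partners and regulators of the family were described from lists of genes. Of 8 genes of electron transfer and heme supply, 0 were called on HFD at either age, and Por, the reductase, differed by 0.28 and 0.38 (adjusted p = 0.632 and 0.467). Between OHFD and YND, where 30.2% of all tested genes were called (12.9% lower and 17.3% higher), 3 of the 8 fell and 1 rose, among them Cyb5b (log2 fold change -0.80, SE 0.15, adjusted p = 0.000716), an outer mitochondrial cytochrome b5, and Fech (-0.58, SE 0.15, adjusted p = 0.00543), the last enzyme of heme synthesis, while Hmox1, which breaks down heme, rose (1.23, SE 0.40, adjusted p = 0.0249), a call lost without YND replicate 5 and without OHFD replicate 6. Hmox1 also rose between OND and YND (1.52, SE 0.41, adjusted p = 0.0205), a call lost without YND replicate 5, OND replicate 3 or OND replicate 4. Of 15 genes that make, release or break down lipid epoxides 8 were tested, with 0 called in young mice, 2 higher in OHFD than in OND, 3 lower in OND than in YND and 2 lower in OHFD than in YND. Leaving out 1 mouse moved the first of these called counts to 1 at the lowest and the OND against YND count to 0 (without YND replicate 5, OND replicate 2 or OND replicate 4), and other settings moved both to 0. Those lower in OHFD than in YND were Ephx1, the microsomal epoxide hydrolase (-1.04, SE 0.25, adjusted p = 0.00375), and Pla2g6, a phospholipase (-0.59, SE 0.17, adjusted p = 0.0109). Of 20 regulators 1 fell between YHFD and YND, 0 were called between OHFD and OND, and 6 fell and 2 rose between OHFD and YND, against the same shares of all tested genes, including falls of Rora (-0.52, adjusted p = 0.00166) and Hnf4a (-0.73, SE 0.18, adjusted p = 0.00534). Leaving out 1 mouse gave 0 to 1 falls between YHFD and YND, and 4 to 6 falls and 1 to 2 rises between OHFD and YND. Other settings, single batches aside, gave 0 to 3, 4 to 7 and 0 to 2.

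Of 16 known targets of CAR and PXR outside the Cyp2c family, 4 fell and 0 rose between YHFD and YND, 5 fell and 0 rose between OHFD and OND, and 9 fell and 0 rose between OHFD and YND. For all lists here, the shares of all tested genes were 1.59% lower and 1.91% higher between YHFD and YND, 1.64% and 1.37% between OHFD and OND, 1.24% and 7.26% between OND and YND, and 12.9% and 17.3% between OHFD and YND. The targets lower in OHFD than in YND included Cyp3a11, the main drug-metabolizing P450 of mouse liver (4430 ± 569 CPM in YND and 631 ± 201 CPM in OHFD, SD, n = 6, adjusted p = 1.3e-07), Ces2a, a carboxylesterase (413 ± 34.1 and 163 ± 32.1 CPM, adjusted p = 4.04e-05), and Cyp2b10 (7.36 ± 2.65 and 0.981 ± 0.703 CPM, adjusted p = 0.000558). CAR (Nr1i3) itself differed by 0.63 in young and 0.23 in old mice on HFD (adjusted p = 0.137 and 0.639), and PXR (Nr1i2) by -0.15 and -0.14 (adjusted p = 0.609 and 0.618). Between OHFD and YND PXR fell (-0.45, SE 0.14, adjusted p = 0.0213), and CAR differed by -0.07 (adjusted p = 0.848). Of 20 female-biased liver genes 9 were tested, and 7 were higher in YHFD than in YND, 4 in OHFD than in OND and 7 in OHFD than in YND, with 0 lower in each, and 3 were higher in OND than in YND. They included Cyp2b9, at 0.303 ± 0.300 CPM in YND and 68.1 ± 47.0 CPM in OHFD (SD, n = 6, adjusted p = 4.08e-06), the neurite outgrowth inhibitor Rtn4 (1.13, SE 0.18, adjusted p = 0.000215) and Cyp2b13, at 0 counts in all YND mice. Genes near 0 in YND, such as Cyp2b9 and Cyp2b13, passed the count filter only through the other groups. For them the direction against YND was largely set by the filter, and the untested genes of the list had too few counts. Of 22 male-biased genes 9 fell and 0 rose between YHFD and YND, 0 were called between OHFD and OND, 8 fell between OND and YND, and 9 fell between OHFD and YND, among them Keg1 (-1.41, adjusted p = 0.000439), Ugt2b1 (-0.97, adjusted p = 0.00201) and Cyp4a12a (-1.20, adjusted p = 0.00228). Leaving out 1 mouse lowered the male-biased counts of 9 between YHFD and YND and 8 between OND and YND to 1, without YHFD replicate 5 and without YND replicate 4. Of 16 pericentral genes 6 rose and 2 fell, and of 16 periportal genes 5 fell, between OHFD and YND.

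Genes whose levels over the 24 mice were most like those of a member were named by Pearson's r of log2 CPM among 13570 genes outside the Cyp2c family, as a description with no test. For Cyp2c50, the member with the highest median FPKM, they were Rad23b, a DNA repair and proteasome shuttle factor (r = 0.917, Spearman's rho 0.869), Amt, a subunit of the glycine cleavage system (r = 0.903, rho 0.897), and Nxt2, an mRNA export factor (r = 0.902, rho 0.865). Within groups and batches r was 0.846, 0.849 and 0.814, and without the 2 mice farthest from the median it was 0.866, 0.841 and 0.842. For Cyp2c29, added after the FPKM scale was seen, they were Cyp3a11 (r = 0.879, rho 0.870), Unc119b (r = 0.877, rho 0.843) and Csad, an enzyme of taurine synthesis (r = 0.872, rho 0.857). Within groups and batches r was 0.342, 0.664 and 0.427. Mice of a batch share what the batches differ in.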

How the data were processed

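RNA-seq counts of isolated hepatocytes were analysed for 24 mice, with group, replicate and batch taken from the labels. Gene counts in whole numbers were deposited by the authors after alignment to mm10 with STAR 2.7.3a and counting with HTSeq 0.11.2, after FastQC 0.11.8, per the labels' processing notes. The handling of strand and of reads matching several genes is not stated. The authors also deposited FPKM values per gene, computed with CuffLinks and adjusted between batches with ComBat, and used here for levels and as an alternative.

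Counts were tested with edgeR 4.0.16 (R 4.3.3): TMM scaling, filterByExpr with a minimum count of 10, 1 model of group and batch over 24 mice, quasi-likelihood F tests and Benjamini-Hochberg adjustment over all 13583 tested genes at 0.05. CPM values are TMM-scaled, and log2 CPM uses a prior count of 2. Total counts of 9200332 to 22185069 per mouse limit precision for low genes, and PCR copies make counting error a lower limit. Alternatives were RLE or no scaling, no count filter, no batch term, a replicate block, DESeq2 1.42.0, only the 2 groups compared, limma 3.58.1 on log2(FPKM + 1), with and without a filter on low values, or log2(FPKM + 0.1), each batch alone and leaving out each mouse, and, added after seeing the data, leaving out YHFD replicate 2 and OHFD replicate 2, and the batch comparisons. The replicate numbers, which belong to different mice, did not pair them. Replicates are separate mice, and no 2 of a group agreed within sampling noise.

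Positions came from GENCODE and promoters from RefSeq (GRCm38.p6). Promoter entries matched all Cyp2c genes but Cyp2c44 and Cyp2c54, with a pair of start sites for Cyp2c39. The 10 members and the lists were chosen with earlier results of these data known. The text names all members, the other Cyp2c genes, at most 3 genes of each other list with the smallest adjusted p in OHFD against YND, and the 3 genes most like the member with the highest median FPKM; Por, Nr1i3, Nr1i2, Alb, Ptprc, Ddx3y, Xist, Cyp4a14, Cyp4a10 and the genes like Cyp2c29 were added after values were seen. Python 3.11.15 was used for sequences and figures.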

Additional observations from a re-analysis of the deposited data

Results flagged for a closer look

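In 3 of 40 sets of 6 mice (10 members in 4 groups), 1 mouse lay so far from the others on the log2 CPM scale that its gap to the nearest, divided by the range of the set, exceeded Dixon's 95% critical value. Chance gives such a gap in about 1 in 20 sets, or 2 of 40. YHFD replicate 2 was highest for Cyp2c40, at 5.81 log2 CPM with the next mouse at 0.90, and for Cyp2c69, at 5.31 with the next at -0.05. As Cyp2c40 and Cyp2c69 share much of their sequence, these are not independent. YND replicate 3 was highest for Cyp2c68, at 8.0 log2 CPM (256 CPM) with the next mouse at 7.42, and was the highest YND mouse for 8 of the 10 members.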

How the results depend on the processing

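Of 483 refits of 41 fold changes of members and Cyp2c55 under settings other than leaving out a mouse, 426 kept direction and side of the threshold, 10 lost and 15 gained a call, and 32 changed sign. The 41 do not hold every comparison of each member. Cyp2c55 stayed called in each of them. The number of members called was 1 between YHFD and YND, 1 between OHFD and OND, 0 between OND and YND, 0 between OHFD and YHFD, 2 between OHFD and YND and 0 for the interaction. With no filter on low counts these were 4, 2, 2, 2, 5 and 3. In batch 1 alone and in batch 2 alone they were 0, 0, 0, 0, 1 and 0. Fitting only the 2 groups gave 2 between YHFD and YND, DESeq2 with or without batch gave 1 between OHFD and YHFD, and RLE, DESeq2 with batch and only the 2 groups each gave 3 between OHFD and YND. Leaving out 1 mouse gave 1 to 1, 1 to 1, 0 to 0, 0 to 0, 2 to 3 and 0 to 0, and for batch 1 against batch 2 it gave 5 to 9 around 7. Fewer mice enter the single-batch fits, and the cause of the other shifts was not tested.

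The replicate block in place of batch gave 1, 1, 0, 0, 2 and 0 members called, as without it. Same-numbered mice of different groups had a mean correlation of deviations of 0.182, with a lowest of -0.32 and a mean of -0.047 after batch was removed, so the numbers do not pair mice.

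Sign changes were of differences that did not pass. Between YHFD and YND they were Cyp2c68 in batch 1 alone (0.13), Cyp2c69 (-0.40) and Cyp2c54 (0.03) in batch 2 alone, and Cyp2c40 (-0.46) and Cyp2c69 (-0.73) without the 2 mice that stand apart, YHFD replicate 2 and OHFD replicate 2. Between OHFD and OND, edgeR without batch gave 0.13 for Cyp2c38, 0.09 for Cyp2c68, 0.90 for Cyp2c40 and 1.38 for Cyp2c69, and DESeq2 without batch gave 0.13, 0.10, 0.90 and 1.37. Batch 1 alone gave 0.70, 0.15, 1.09 and 1.60, with -0.36 for Cyp2c54, and batch 2 alone gave -0.67 for Cyp2c39. The replicate block gave 0.00 for Cyp2c68, 0.01 for Cyp2c40 and 0.51 for Cyp2c69. For Cyp2c69, RLE gave 0.00, total counts 0.06 and leaving out the 2 mice 0.02. For Cyp2c54, no filter on low counts and the 3 limma fits each gave -0.01. Leaving out 1 mouse gave, between YHFD and YND, -0.24 to 0.04 for Cyp2c68, -0.41 to 2.10 for Cyp2c40 and -0.70 to 2.42 for Cyp2c69, with the lowest values without YHFD replicate 2. Between OHFD and OND it gave -0.27 to 0.11 for Cyp2c38, -0.19 to 0.00 for Cyp2c68, -0.72 to 0.42 for Cyp2c40, -0.44 to 0.84 for Cyp2c69 and -0.17 to 0.09 for Cyp2c54. The interaction of Cyp2c29 ranged from -0.20 to 0.17, and it was 0.00 with the replicate block, 0.01 in batch 1 alone and 0.14 without the 2 mice. Between OHFD and YHFD, leaving out 1 mouse gave -0.87 to 1.87 for Cyp2c40 and -0.56 to 2.74 for Cyp2c69. Their interactions ranged from -2.51 to 0.54 and from -2.70 to 1.31.

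Counts over lists moved with settings. Excluding single-batch fits, targets of CAR and PXR called lower ranged from 2 to 7 (4) in young, 1 to 6 (5) in old and 6 to 9 (9) in OHFD against YND, female-biased genes called higher from 4 to 9 (7), 0 to 7 (4) and 5 to 10 (7), male-biased genes lower from 1 to 19 (9) between YHFD and YND, 1 to 15 (8) between OND and YND and 6 to 15 (9) between OHFD and YND, and leukocyte, endothelial and stellate markers higher from 1 to 19 (16), 0 to 8 (4) and 0 to 8 (7) between OND and YND, with the value of the reported test in parentheses. Leaving out 1 mouse moved the OND against YND counts to 1 to 8 for male-biased genes, 12 to 17 for leukocyte, 0 to 5 for endothelial and 4 to 8 for stellate markers. The YHFD against YND counts moved to 1 to 9 for male-biased genes (1 without YHFD replicate 5), 3 to 7 for female-biased genes (3 without YND replicate 2) and 0 to 7, 0 to 5 and 0 to 3 for these markers, and the female-biased count between OHFD and OND to 1 to 5 (1 without OND replicate 2). The levels of Cyp2c39, Cyp2c40 and Cyp2c69 rest on few counts in most mice.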
